A study of Mus musculus with 18 samples.

Results

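The 46 genes described here encode the machinery that copies nuclear DNA, and they were chosen by name as a set of DNA replication genes. All 46 were found by symbol among the 32941 genes of each of 4 tables of RNA sequencing in mouse brain and neural stem cells. By role they were the origin licensing genes Orc1, Orc6, Cdc6 and Cdt1, the MCM ring genes Mcm2 to Mcm7, and the helicase activation genes Cdc45, Gins1, Gins2, Gins3, Gins4 and Mcm10. The sliding clamp gene Pcna and its loader genes Rfc1 to Rfc5 came next, with the polymerase and primase genes Pola1, Pola2, Prim1, Prim2, Pole, Pole2, Pold1 and Pold2. The remaining members were Rpa1, Rpa2, Fen1, Lig1 and Exo1 for single-strand binding and flap processing, Rrm1, Rrm2, Tyms, Tk1 and Dut for nucleotide supply, Chaf1a, Chaf1b and Uhrf1 for chromatin assembly, and the G1/S regulators Ccne1, Ccne2 and E2f1.

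A cell prepares to copy its genome by loading the ring-shaped MCM helicase onto origins that the origin recognition complex, Cdc6 and Cdt1 have marked. At the start of S phase Cdc45 and the GINS complex join the ring to form the active helicase, and polymerases held by the PCNA clamp copy the opened strands. Many of these genes are transcribed by E2F factors as a cell leaves G1, so in the embryonic cortex their mRNAs are known as marks of dividing radial glia and intermediate progenitors, while neurons leave the cell cycle and shut the genes down.

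The 18 libraries came from a study of peroxisomal ether lipids in cortical neurogenesis. Wild-type brain was sampled at embryonic days (E) 11, 12, 13, 14, 16 and 18, with 1 library per stage in the tables, although the design text speaks of cortex and of triplicates. Primary wild-type neural stem cells carried a scrambled control or a short hairpin against Pex7 (Pex7sh), the receptor that imports a class of enzymes into peroxisomes, with 2 libraries each. Overexpression labelled PLAAT3-PEX11, after a phospholipase and a peroxisome division factor, was compared with a control in wild-type brain labelled Ctrl1 and PLA1 (the first set) and in wild-type brain labelled Neuron-ctrl and Neuron-PLA (the neuron set), with 2 libraries per group. The labels give neither the age of these 8 libraries, nor the construct, nor how neurons were obtained. Whether replicate libraries stem from different animals or cultures is not stated, and a p-value here reflects the scatter among the libraries at hand, possibly only technical scatter. For the stages, with 1 library each, a p-value reflects the departure of the stage values from a straight line over days.

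Values were RPKM, that is, reads scaled to exon length and to library depth. The read totals recovered from them ranged from 41501880 to 54373317 in the 6 stages and from 16147911 to 28104927 in the other 12 libraries. Pex7 and Plaat3 followed the labels, and Pex11 genes were not analysed here. Pex7 read 1.19 and 1.22 RPKM with the scrambled control and 0.5004 and 0.669 with the hairpin, and Plaat3 went from 0.413 and 0.431 to 31.4 and 29.1 RPKM in the first set and from 0.0699 and 0.230 to 19.0 and 20.8 in the neuron set. The 6 hindbrain and spinal identity genes summed to at most 2.19 RPKM in any library. In the neuron set, 10 neuronal markers summed to 2318 to 2416 RPKM, against 447 to 942 RPKM in the first set. The E11 library also held 5915 RPKM of erythroid transcripts, against 1431 at E12 and 253 at E18. In the 12 perturbation libraries astrocyte genes summed to 6.29 to 39.2 RPKM and pericyte and meningeal genes to 0.534 to 4.39. Intermediate progenitor genes summed to 325 to 347 RPKM in the first set, 53.5 to 66.2 in the stem cells and 21.4 to 31.0 in the neuron set. Genes of the oligodendrocyte lineage stood at 213 to 425 RPKM in the stem cells and at no more than 51.2 in the overexpression sets. Microglial and endothelial genes were nearly absent from the stem cells, at sums of 0.281 to 2.53 and 0.490 to 0.658 RPKM. Among the stem cell libraries the first scramble library stood apart from the second, and the knockdown is therefore given with and without each of them.

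The promoters of the members were searched for the letters that E2F factors are known to bind, to describe what members chosen by name share besides. RefSeq windows on GRCm38.p6, from 250 bases before to 50 bases after a gene start, were matched by symbol for 37 of the 46 members, in 43 windows. The letters searched were TTTGGCGC, TTTCGCGC, TTTCCCGC and TTTGCCGC on both strands, and matches that overlap each other were counted separately. At least 1 match lay in 14 of the 43 windows, 32.6% (exact Clopper-Pearson 95% interval 19.1 to 48.5%), against 2.26% of all 32851 windows and 4.04% of the 12378 windows of genes tested over the stages. With only TTTGGCGC and TTTCGCGC the shares were 25.6% and 0.813%. The CCAAT box (CCAAT) lay in 55.8% of the members' windows, 37.4% of all windows and 38.0% of those of tested genes. The CHR letters (TTTGAA), known from genes of mitosis, lay in 11.6% of the members' windows (exact interval 3.89 to 25.1%), 17.9% of all windows and 11.5% of those of tested genes. A match describes the letters only and is no evidence of binding. The stretches below are the parts of 5 such windows that lie outside exons of GENCODE M21. They are written 5′ to 3′ on the gene's strand with the matches in capitals. They were chosen by sequence and annotation, for a match before the RefSeq start and outside exons, and not by any expression result. Mcm6 (chr1:128359706-128359955, minus strand) had 3 matches, Mcm5 (chr8:75109259-75109508, plus strand) had 2, and Cdc6 (chr11:98907982-98908150, plus strand), Uhrf1 (chr17:56304063-56304312, plus strand) and Pola1 (chrX:93632156-93632405, minus strand) had 1 each. In that annotation the Cdc6 and Uhrf1 stretches lie within the gene, in an intron, and the other 3 lie upstream of it.
Mcm6: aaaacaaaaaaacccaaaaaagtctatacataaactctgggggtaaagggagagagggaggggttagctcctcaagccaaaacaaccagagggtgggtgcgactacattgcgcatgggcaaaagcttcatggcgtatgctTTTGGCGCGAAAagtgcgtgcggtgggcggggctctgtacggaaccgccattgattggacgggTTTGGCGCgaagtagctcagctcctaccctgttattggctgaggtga
Mcm5: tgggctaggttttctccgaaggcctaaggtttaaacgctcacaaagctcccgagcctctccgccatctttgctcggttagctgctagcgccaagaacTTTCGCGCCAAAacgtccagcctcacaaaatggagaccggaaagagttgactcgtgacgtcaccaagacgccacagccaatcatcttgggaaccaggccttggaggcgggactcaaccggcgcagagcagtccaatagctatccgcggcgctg
Cdc6: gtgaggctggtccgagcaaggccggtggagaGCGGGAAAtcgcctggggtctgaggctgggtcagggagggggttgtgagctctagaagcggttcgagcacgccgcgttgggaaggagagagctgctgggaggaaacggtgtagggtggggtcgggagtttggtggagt
Uhrf1: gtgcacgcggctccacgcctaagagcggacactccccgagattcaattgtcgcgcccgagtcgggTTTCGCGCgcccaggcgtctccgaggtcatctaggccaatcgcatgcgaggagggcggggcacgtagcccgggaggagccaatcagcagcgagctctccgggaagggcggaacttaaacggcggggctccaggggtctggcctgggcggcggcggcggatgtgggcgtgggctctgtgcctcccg
Pola1: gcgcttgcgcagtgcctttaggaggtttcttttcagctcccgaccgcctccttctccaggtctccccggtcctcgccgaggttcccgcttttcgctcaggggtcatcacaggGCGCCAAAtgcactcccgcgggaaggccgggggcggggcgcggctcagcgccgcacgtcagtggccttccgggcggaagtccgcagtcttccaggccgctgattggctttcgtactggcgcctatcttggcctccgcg
The 14 members with a match were Cdc6, Cdt1, Gins3, Lig1, Mcm3, Mcm5, Mcm6, Mcm7, Orc1, Pola1, Pold1, Pole2, Rfc3 and Uhrf1. No window was listed for Ccne2, Exo1, Gins1, Gins2, Gins4, Mcm4, Pole, Prim2 or Rfc2.

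Over embryonic development the replication genes fell together. With a slope on embryonic day fitted by limma to log2(RPKM + 1), 44 of the 46 members fell (Benjamini-Hochberg adjusted p under 0.05 over 12921 genes), 0 rose, and Gins2 and Rfc5 passed in neither direction. Among all genes tested 25.5% fell and 19.6% rose. The median slope of the members was -0.32 log2 per day, and that of all genes was -0.02. The summed level of the 46 was 1680 RPKM at E11, 1204 at E12, 883 at E13, 959 at E14, 579 at E16 and 295 at E18. In whole tissue, fewer cells of a type and less RNA per cell cannot be told apart.

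Among the licensing genes, Cdt1, which loads the MCM ring together with Cdc6, went from 30.3 RPKM at E11 through 19.6, 12.3, 15.8 and 6.28 to 2.14 at E18. Its slope was -0.44 log2 per day (SE 0.04, limma adjusted p = 0.000697). The last stages lay lowest and E14 lay slightly above E13. Mcm3, a subunit of the ring, went from 68.2 RPKM at E11 through 49.0, 30.6, 36.7 and 14.8 to 3.73 at E18, a slope of -0.52 (SE 0.05, adjusted p = 0.000765). The MCM ring fell furthest of the 9 role groups, its members standing at E18 at a median of 6.88% of their E11 level. All 4 licensing genes fell as well, but unevenly. Cdc6 ended at 6.53% of its E11 level, and Orc6, a small subunit of the origin recognition complex, at 39.9%.

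Cdc45, the helicase cofactor that joins the ring at initiation, went from 20.9 RPKM at E11 through 14.1, 8.88, 8.66 and 5.08 to 1.45 at E18 (slope -0.42, SE 0.03, adjusted p = 0.000653). Each stage lay below the one before. Gins2, a subunit of the GINS complex, took another course, with 47.6, 42.6, 49.4, 57.2, 49.2 and 24.3 RPKM in order of stage and a slope of -0.10 that did not pass (adjusted p = 0.142). It was highest at E14 and low only at E18. Its partner Gins4 stood at 36.8 RPKM at E11 and 18.0 at E18, that is, 48.9% of the early level, whereas Mcm10, a replication initiation factor, ended at 5.55% of it.

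The clamp and its loader fell least as a group, to a median of 27.5%. Rfc4, a small subunit of the loader, went from 56.5 RPKM at E11 through 35.8, 24.7, 25.4 and 16.3 to 5.49 at E18 (slope -0.40, SE 0.04, adjusted p = 0.000741). Rfc5, another small subunit of the same complex, read 22.8, 18.5, 17.0, 18.0, 17.6 and 23.1 RPKM in order of stage. Its slope of 0.01 (SE 0.03, adjusted p = 0.815) was the smallest of all members, and its E18 value was the highest of the 6. Pcna, the clamp itself, was the most abundant member per length at E11 with 142 RPKM and stood at 19.6 RPKM at E18.

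Of the polymerase and primase genes, all 8 fell. Pold1, the catalytic subunit of polymerase delta, which copies the lagging strand, went from 27.8 RPKM at E11 through 19.5, 14.6, 14.5 and 8.64 to 3.97 at E18 (slope -0.34, SE 0.03, adjusted p = 0.000652). Fen1, the nuclease that trims flaps of Okazaki fragments, went from 57.8 RPKM through 36.4, 25.5, 31.7 and 15.4 to 5.42 (slope -0.41, SE 0.05, adjusted p = 0.000934). Exo1, an exonuclease of mismatch repair and end resection, had the lowest remainder of all members, from 6.72 RPKM at E11 to 0.245 at E18, or 3.64%.

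Rrm2, the S-phase subunit of ribonucleotide reductase, went from 95.2 RPKM at E11 through 70.7, 40.5, 37.5 and 18.3 to 5.92 at E18 (slope -0.52, SE 0.03, adjusted p = 0.000652). Uhrf1, which carries DNA methylation over to the new strand, had the steepest slope of the 46, with 70.8, 55.5, 32.1, 34.5, 15.3 and 3.67 RPKM in order of stage (-0.54, SE 0.05, adjusted p = 0.000653). E2f1, a transcription factor that drives G1/S genes, fell later than these. It read 23.5, 20.5, 16.1, 19.8, 9.36 and 3.78 RPKM, a slope of -0.32 (SE 0.05, adjusted p = 0.00188), and it still stood at E14 near its E12 level.

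**Figure D1:**
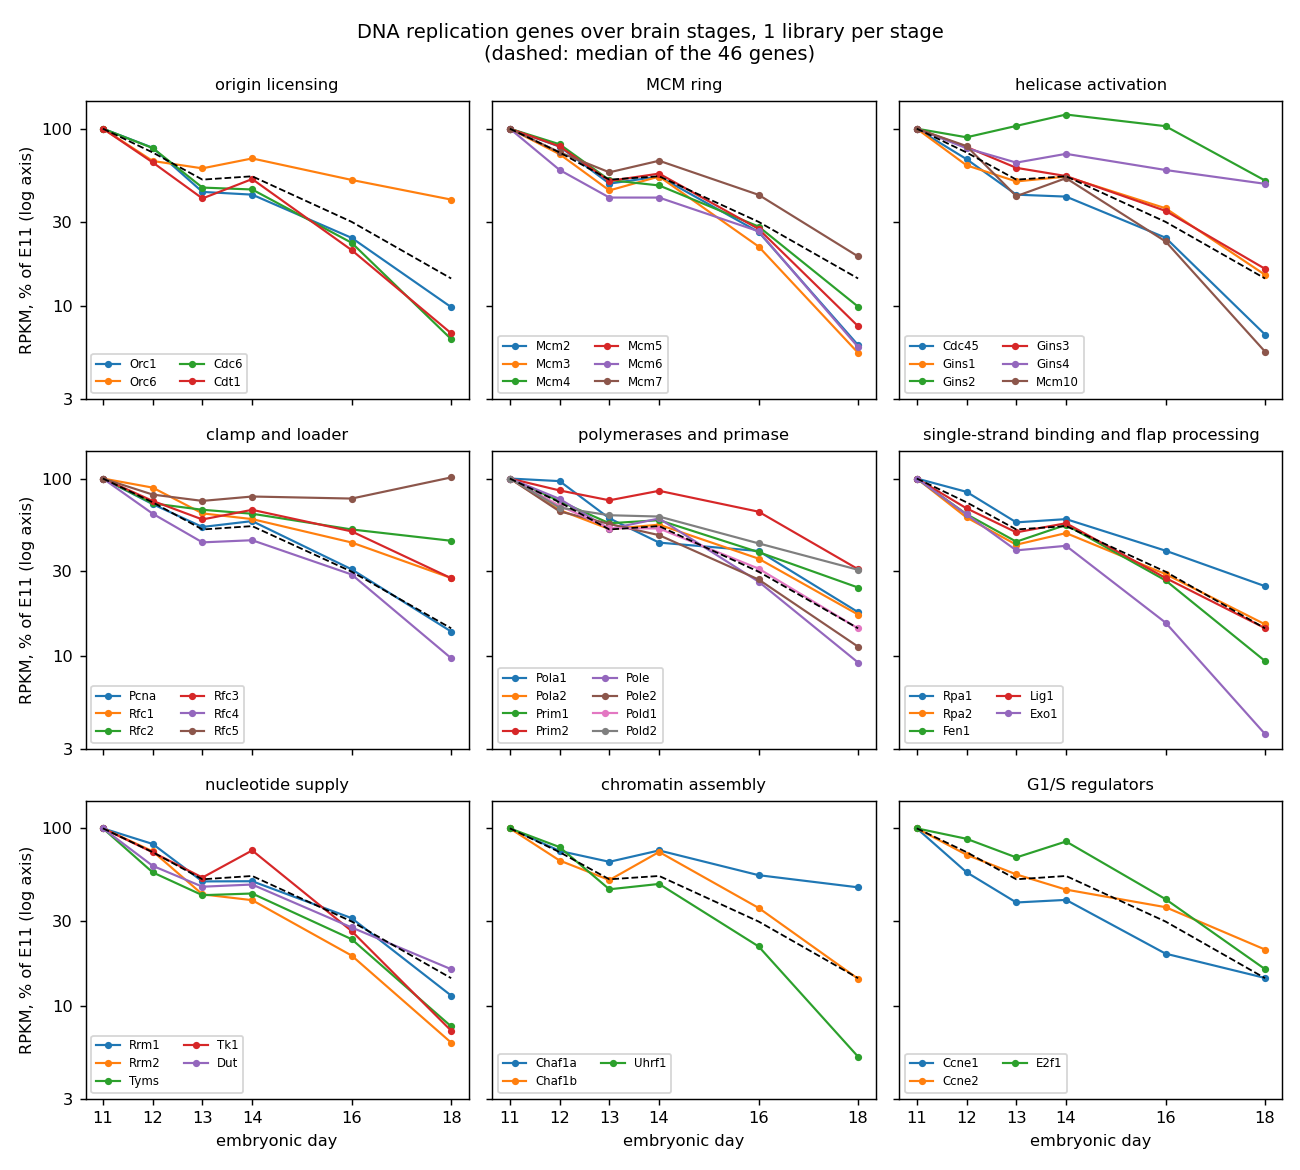
RPKM of each member as a percentage of its E11 value (log axis) against embryonic day, in 9 panels by role, with 1 library per stage and the median of the 46 members dashed. At E18 the median line ends at 14.3%, the members range from 3.64% to 101%, the MCM ring ends lowest at a median of 6.88%, and Rfc5 ends highest.

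The fall was not even in time. From E11 to E12 no member went up (54.2% of all genes), and from E14 to E16 none did (49.2% of all genes). From E12 to E13 and from E16 to E18 1 member went up (47.8% and 39.9% of all genes). From E13 to E14, by contrast, the median change of the members was 0.07 log2. At that step 32 of the 46 members (69.6%) went up, against 46.8% of all genes. So did 26 of 54 other replication and S-phase genes, 8 of 20 mitosis genes, 7 of 10 radial glia genes and 4 of 5 intermediate progenitor genes. This step was picked after its values were seen and rests on 1 library per stage. E11 was the highest stage for 44 members (32.4% of all genes), and E18 the lowest for 45 (43.2% of all genes). At E18 18 members stood under 10% of their E11 level, as did 2.11% of all genes, and 5 stood over 40% (Gins2 51.1%, Gins4 48.9%, Chaf1a 46.5%, Rfc2 44.6% and Rfc5), as did 87.7% of all genes.

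Of 54 other replication and S-phase genes tested, 49 fell and 1 rose, with a median slope of -0.22. The largest falls among them were those of Gmnn (-0.52), the inhibitor of Cdt1, and Pclaf (-0.49), a PCNA-binding factor, and the gene that rose was Pold4 (0.11), a small subunit of polymerase delta. Marker genes of other states moved over the same stages. All 20 mitosis genes fell (median -0.49, summed 878 RPKM at E11 and 52.9 at E18), and 7 radial glia genes fell while 1 rose (1047 to 654 RPKM). Of 5 intermediate progenitor genes 3 fell, their sum going from 186 RPKM at E11 through 261, 267, 297 and 188 to 32.7 at E18. Of 10 neuronal genes, 8 rose (1057 to 3516 RPKM), and of 5 microglia genes 4 rose (13.4 to 26.7 RPKM). Of 3 astrocyte genes tested 2 rose and 1 fell (sum of the list 5.71 to 21.9 RPKM). Of 3 oligodendrocyte lineage genes tested 2 rose, the list summing to 25.3 RPKM at E11, 7.21 at E14 and 68.5 at E18. The part of these lists in the fall of the replication genes was not tested.

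The members that kept most of their level include several whose exons overlap a gene on the other strand, and no source used here says whether counting used strand. In GENCODE M21 on GRCm38, Gins2 (chr8:120578633-120589304, minus strand) shares 2758 of its 4097 exon bases (67.3%) with Gse1, Chaf1a (chr17:56040439-56072289, plus strand) shares 4648 of 8854 (52.5%) with Ubxn6, and Rfc5 (chr5:117378103-117389047, minus strand) shares 499 of 4669 (10.7%) with Wsb2. Gse1 read 15.2, 17.4, 20.6, 23.3, 21.1 and 10.8 RPKM over the stages and so was highest at E14, as Gins2 was. Wsb2 read 13.2, 19.1, 22.2, 19.6, 28.9 and 49.3 RPKM and was highest at E18. Ubxn6 read 25.5, 18.9, 19.9, 22.1, 19.3 and 18.6 RPKM, beside 23.3, 17.4, 15.1, 17.5, 12.7 and 10.9 for Chaf1a, a subunit of the histone chaperone CAF-1. Both ended lower than they began. The part of such overlap in these profiles, or in the values of these genes in the other libraries, was not tested. Of the 46 members 8 overlapped an opposite-strand gene by 10% or more of their exon bases, Fen1 most of all with 84.2%, followed after the genes named above by Ccne2 (17.4%), Rfc2 (15.1%), Rfc4 (12.7%) and Orc1 (10.8%). Of these 8, all but Gins2 and Rfc5 fell over the stages, and so did all 38 others. From E11 to E18 Fen1 went from 57.8 to 5.42 RPKM, Rfc4 from 56.5 to 5.49 and Orc1 from 3.96 to 0.391. Gins4, with no such overlap, went from 36.8 to 18.0 RPKM.

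**Figure D2:**
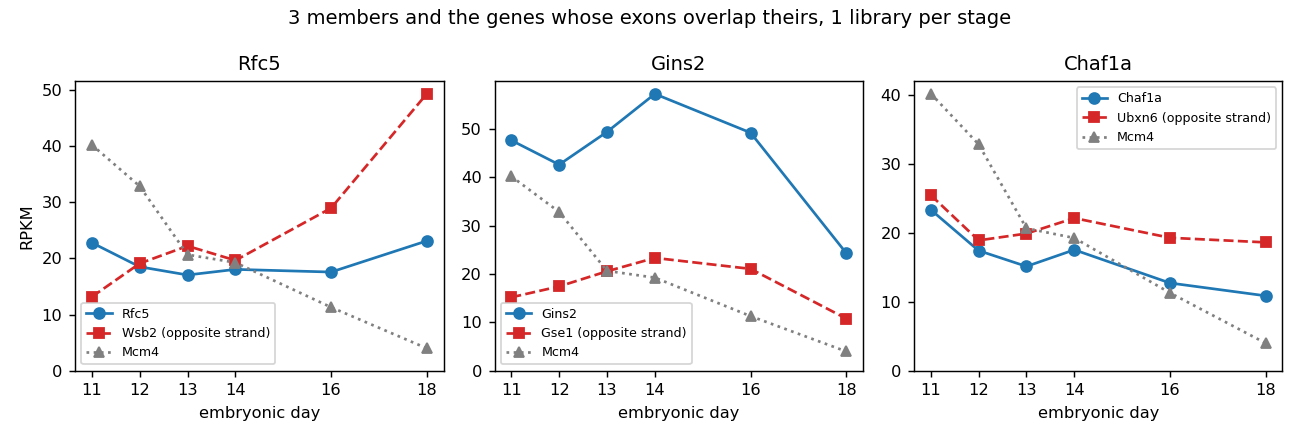
RPKM against embryonic day for 3 members and the gene that overlaps each on the other strand (Rfc5 with Wsb2, Gins2 with Gse1, Chaf1a with Ubxn6), with Mcm4, which has no such overlap, drawn for comparison, 1 library per point. Wsb2 climbs to 49.3 RPKM at E18 while Rfc5 ends at 23.1, and Gins2 and Gse1 are both highest at E14.

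In neural stem cells the 2 scramble libraries differed from each other in every replication gene. All 46 members were higher in scramble library 1, by a median of 0.59 on the log2(RPKM + 1) scale and by at least 1.5-fold on that scale in 23 members. Of all genes tested, 49.4% were higher in scramble library 1 and 3.47% by at least 1.5-fold. With 1 library on each side there is no test of this difference. The members summed to 693 RPKM in scramble library 1, 454 in scramble library 2, and 600 and 557 in the Pex7sh libraries. In 42 of the 46 members both Pex7sh libraries lay between the 2 scramble libraries, as they did with scramble library 1 highest in 21.6% of all genes. The exceptions were Orc6, Gins3, Rfc3 and Fen1. The same order held for markers of cell state. Mitosis genes summed to 400 and 225 RPKM in scramble libraries 1 and 2 and to 322 and 292 in the Pex7sh libraries, radial glia genes to 1165 and 828 against 1039 and 1046, and oligodendrocyte lineage genes to 425 and 213 against 318 and 319. Neuronal genes ran the other way, at 1018 and 1388 against 1209 and 1224, and their part in the difference was not tested. All 20 mitosis genes, 49 of 54 other replication genes and 0 of 10 neuronal genes were higher in scramble library 1.

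Knockdown of Pex7 gave no replication gene that passed. Of 12482 genes tested with limma, 0 passed in either direction (a background of 0%), 184 had an unadjusted p under 0.05, and limma-voom on the recovered reads called 0 with 120 at that level. None of the 46 members had an unadjusted p under 0.05. Their median change was 0.04 log2, 32 changes being positive and 14 negative, from -0.29 for Fen1 to 0.25 for Rrm2, with SEs of 0.07 to 0.32. In 0 of the 46 did the groups stand clear of each other, against 10.6% of all genes clear upward and 11.9% downward. The sign turned on which scramble library was kept. Without scramble library 1, 44 changes were positive and the median was 0.34, and without scramble library 2 all 46 were negative and the median was -0.24. Without Pex7sh library 1 it was -0.02, and without Pex7sh library 2 it was 0.08.

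The wide scramble pair was plain in single genes. Uhrf1 read 43.3 and 21.2 RPKM in the scramble libraries and 32.5 and 31.1 in the Pex7sh libraries (log2 change 0.06, SE 0.32), the widest scramble pair of all members on the log2 scale at 1.00. Cdt1 read 9.68 and 5.32 against 7.90 and 7.47 (0.08, SE 0.25). In both genes the Pex7sh pair was close together and lay inside the scramble pair. The same held for Mcm5 of the MCM ring, at 25.4 and 16.0 RPKM against 21.9 and 21.3 (0.09, SE 0.21), and for Gins1, at 8.12 and 4.74 against 7.84 and 6.86 (0.20, SE 0.23). Rfc4 read 13.0 and 8.13 against 12.9 and 10.1 (0.14, SE 0.23). Pole2, an accessory subunit of polymerase epsilon, read 3.17 and 1.70 against 3.01 and 2.32 (0.12, SE 0.24). Here too the scramble libraries were the outer pair. Rrm2 read 44.8 and 26.6 against 43.6 and 39.1 (0.25, SE 0.25), with both Pex7sh libraries near scramble library 1. Gins4 was flat, at 16.9 and 16.5 against 16.9 and 16.6 (0.00, SE 0.07), the smallest change of all.

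Fen1 had the largest change in size, -0.29 (SE 0.18), at 3.50 and 2.34 RPKM against 2.41 and 1.95. The groups overlapped, since Pex7sh library 1 lay above scramble library 2. These values of Fen1 rest on 146, 104, 105 and 88 recovered reads, and 84.2% of its exon bases overlap opposite-strand genes. Among the other members with a negative change, E2f1 read 12.6 and 9.34 against 10.2 and 9.46 (-0.13, SE 0.15), and Gins3, a GINS subunit, 3.17 and 2.55 against 2.705 and 2.37 (-0.12, SE 0.13). In E2f1 and Gins3 too the groups overlapped. Exo1 read 2.80 and 1.46 against 1.79 and 2.02 (-0.08, SE 0.23), and Ccne1, the cyclin that starts S phase with Cdk2, read 8.12 and 5.40 against 6.88 and 5.94 (-0.05, SE 0.19). The licensing genes Orc1, at 1.99 and 1.44 against 1.58 and 1.62, and Orc6, at 15.0 and 13.1 against 13.98 and 12.9, both changed by -0.06 with SEs of 0.15 and 0.10. None of these differences exceeded the spread between the scramble libraries. Mcm7 of the ring read 39.5 and 27.3 against 32.5 and 31.6 (-0.04). Of the loader genes, Rfc1 read 13.1 and 9.46 against 11.1 and 10.9 (-0.02), Rfc2 10.7 and 8.29 against 9.10 and 8.92 (-0.06), Rfc3 10.7 and 9.59 against 10.5 and 9.21 (-0.04), and Rfc5 6.77 and 5.42 against 5.90 and 5.97 (-0.03). The polymerase genes Pola1, at 5.35 and 3.53 against 4.45 and 3.87, and Pold2, at 30.9 and 23.6 against 26.5 and 25.4, both changed by -0.06. For every member the limma adjusted p was 1.00, and of the other replication and S-phase genes 0 of 54 passed.

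**Figure D3:**
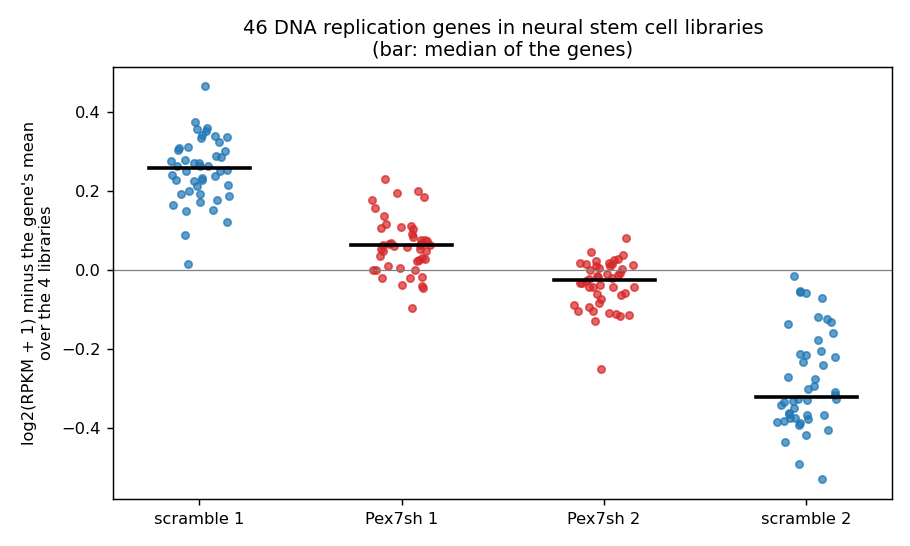
Deviation of each member's log2(RPKM + 1) from its mean over the 4 neural stem cell libraries, with 1 point per gene, the libraries on the horizontal axis and a bar at each library's median. Scramble library 1 lies above and scramble library 2 below the pair of Pex7sh libraries, the scramble libraries differing by a median of 0.59.

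In the first overexpression set the replication genes rose with PLAAT3-PEX11. Of 45 members tested with limma, 37 rose and 0 fell, against 16.3% of 11623 genes that rose and 13.2% that fell (29.6% in either direction). The median change of the members was 0.61 log2 and that of all genes 0.06. Their summed level was 1213 and 1193 RPKM in Ctrl1 and 1808 and 1755 in PLA1. In 44 of the 46 members both PLA1 libraries lay above both Ctrl1 libraries, as in 39.6% of all genes, and in 0 members both lay below, as in 29.7% of all genes. The 8 tested members that did not pass were Orc6 (0.10), Cdc45 (0.38), Gins1 (0.29), Gins2 (-0.02), Gins4 (0.14), Rfc3 (0.29), Prim2 (0.23) and Dut (0.21).

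The largest change of a member was that of Cdc6, the origin licensing ATPase, at 14.7 and 16.0 RPKM in Ctrl1 and 32.3 and 31.9 in PLA1. Its change was 1.02 log2 (SE 0.09, limma adjusted p = 0.000571), and the groups did not overlap. In the licensing group 3 of 4 members rose, and in the MCM ring 6 of 6. Mcm3 read 54.3 and 59.4 in Ctrl1 and 99.5 and 111 in PLA1 (0.88, SE 0.09, adjusted p = 0.000857). Mcm10 read 10.7 and 10.7 against 21.2 and 20.1 (0.89, SE 0.10, adjusted p = 0.00117). Both PLA1 libraries of these genes lay far above Ctrl1. Mcm10 was a minority in its group, since only 2 of 6 helicase activation genes rose. Gins2 read 5.59 and 5.30 against 5.80 and 4.93 (-0.02, SE 0.14, adjusted p = 0.922), with overlapping groups, and was the smallest change of all members. It shares 67.3% of its exon bases with Gse1 on the other strand.

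Of the clamp and loader genes 5 of 6 rose. Rfc1, the large subunit of the loader, read 14.3 and 13.8 RPKM in Ctrl1 and 22.5 and 23.9 in PLA1 (0.68, SE 0.09, adjusted p = 0.00265). Of the polymerase and primase genes 7 of 8 rose, with Pola1, the catalytic subunit of polymerase alpha, changing most, from 5.40 and 5.44 to 11.4 and 10.7 (0.91, SE 0.11, adjusted p = 0.00194). Neither pair of groups overlapped. Exo1 read 5.82 and 5.46 against 11.3 and 12.1 (0.94, SE 0.12, adjusted p = 0.00174) and led its group, in which all 4 tested members rose. Fen1 was not tested because its mean lay under 1 RPKM, at 0.262 and 0.373 in Ctrl1 and 0.537 and 0.414 in PLA1, from 13, 19, 21 and 18 recovered reads. At E11 it had read 57.8 RPKM. Pcna, which rose, also read low here, at 6.52 and 5.11 RPKM in Ctrl1 and 9.31 and 9.62 in PLA1, against 142 at E11. The sets were normalised separately, and why these genes read low here was not tested.

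Nucleotide supply rose in 4 of 5 members. Rrm2 changed most, from 22.7 and 21.6 RPKM to 36.5 and 37.3 (0.71, SE 0.08, adjusted p = 0.00151). All 3 chromatin assembly genes rose, and Uhrf1 led them with 32.4 and 38.1 against 61.7 and 67.2 (0.86, SE 0.10, adjusted p = 0.00151). In both genes the lower PLA1 library was well above the higher Ctrl1 library. All 3 G1/S regulators rose. E2f1 read 2.87 and 2.71 against 4.40 and 6.45 (0.74, SE 0.18, adjusted p = 0.0226), the PLA1 libraries being higher but far apart, and it no longer passed without Ctrl1 library 1 (0.77), Ctrl1 library 2 (0.71) or PLA1 library 2 (0.51).

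Of 53 other replication and S-phase genes tested, 29 rose, 0 fell and 24 did not pass, with a median change of 0.44. E2f2 (1.23), an activating E2F factor, and Rbl1 (1.14), a pocket protein that binds E2F factors, had the largest rises. Other marker lists moved in the same libraries. Of 20 mitosis genes 19 rose (summed 769 to 783 RPKM in Ctrl1 and 1192 to 1213 in PLA1), and 5 of the radial glia genes rose while 1 fell (313 to 330 against 376 to 377). Of 10 neuronal genes 7 fell (924 to 942 against 447 to 463), and 5 of 5 microglia genes fell (366 to 399 against 157 to 168). Their part in the rise was not tested. Scaling mattered for the balance of all genes. The share of rises among called genes was 55.3% as deposited, 47.1% with median-ratio scaling and 40.2% with upper-quartile scaling, under which the median of all genes was 0.01 and -0.04. The members that rose then numbered 36 and 33. Among the 38 members with little opposite-strand overlap, 31 rose, with a median change of 0.62.

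In the neuron set no replication gene passed. Of 11179 genes 0.376% rose and 0.501% fell with limma, and of 40 members tested 0 passed. limma-voom called 353 genes and again 0 members. The members' median change was -0.14 log2 against 0.00 for all genes, with 28 negative and 12 positive changes, and their sum was 502 and 476 RPKM in Neuron-ctrl and 451 and 442 in Neuron-PLA. Both Neuron-PLA libraries lay below both controls in 18 of 46 members, as in 25.3% of all genes, and above them in 6, as in 24.7%.

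Uhrf1 had the largest change, at 6.52 and 5.25 RPKM in Neuron-ctrl and 4.27 and 2.89 in Neuron-PLA (-0.60, SE 0.20, limma adjusted p = 0.192). Cdc6 followed, at 3.68 and 3.15 against 2.29 and 1.64 (-0.58, SE 0.20, adjusted p = 0.206). In both, the groups did not overlap but the difference did not pass. Gins1 read 25.4 and 16.9 against 14.8 and 14.9 (-0.46, SE 0.18, adjusted p = 0.245), with a wide control pair. Rfc4 read 24.4 and 24.8 against 17.3 and 19.6 (-0.40, SE 0.11, adjusted p = 0.131) and Mcm3 8.09 and 9.65 against 7.42 and 5.81 (-0.38, SE 0.16, adjusted p = 0.289). In these 2 genes both treated libraries were lower. Tk1, the salvage enzyme for thymidine, read 1.90 and 2.34 against 1.29 and 1.57 (-0.36, SE 0.22, adjusted p = 0.436), and Ccne1 2.89 and 2.40 against 2.13 and 1.74 (-0.31, SE 0.20, adjusted p = 0.467). Rpa1, the large subunit of the single-strand binding protein, read 7.57 and 8.86 against 8.19 and 6.81 (-0.12, SE 0.15, adjusted p = 0.738), with overlapping groups.

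A minority ran the other way, none past the test. Pola2, the regulatory subunit of polymerase alpha, read 4.63 and 4.85 against 6.59 and 5.98 (0.34, SE 0.15, adjusted p = 0.288), and Tyms, which makes thymidylate, 3.81 and 3.58 against 5.14 and 4.32 (0.29, SE 0.17, adjusted p = 0.42). Chaf1b, the middle subunit of CAF-1, read 13.0 and 14.1 against 15.8 and 16.1 (0.22, SE 0.11, adjusted p = 0.359), and its partner Chaf1a read 1.25 and 1.08 against 1.69 and 1.11 (0.14, SE 0.24). In the first 3 of these both treated libraries were higher, and in Chaf1a only 1 clearly was. Cdt1 read 3.19 and 3.12 against 3.77 and 3.90 (0.22, SE 0.17), and Prim2, the large subunit of primase, 4.28 and 3.92 against 4.79 and 4.40 (0.13, SE 0.16). Mcm10 read 1.09 and 1.06 against 1.06 and 1.499 (0.13, SE 0.24). Both treated libraries were higher for Cdt1 and Prim2, while the groups of Mcm10 overlapped. The smallest of the positive changes were those of Gins4, at 80.8 and 86.9 against 89.9 and 84.0 (0.05), Pola1, at 2.03 and 2.04 against 2.22 and 2.04 (0.05), Rfc5, at 5.43 and 5.58 against 5.40 and 5.91 (0.03), Mcm7, at 31.8 and 26.8 against 27.8 and 31.7 (0.02), and Cdc45, at 1.11 and 1.06 against 0.964 and 1.23 (0.00). Their groups overlapped or nearly touched.

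The 6 members not tested had means under 1 RPKM. Orc1 read 1.16 and 1.07 in Neuron-ctrl and 0.561 and 0.695 in Neuron-PLA, with no overlap. Pole, the catalytic subunit of polymerase epsilon, read 0.565 and 0.0907 against 0.682 and 0.539, and Pole2 read 1.24 and 0.559 against 0.529 and 0.914. Exo1 read 0.574 and 0.771 against 0.317 and 0.714, and E2f1 0.865 and 0.803 against 0.755 and 0.857. These 4 overlapped. Fen1 was lowest, at 0.203 and 0.0760 against 0.0197 and 0.118, from 11, 4, 1 and 8 recovered reads. Of 44 other replication and S-phase genes tested 0 passed. Of the mitosis genes 17 of 20 were lower and 0 passed (152 to 160 RPKM against 117 to 120). The endothelial genes stood at 19.2 to 19.6 RPKM in Neuron-ctrl and 1.29 to 1.70 in Neuron-PLA, where at least 2 of the 5 were at 0 in each library, and the radial glia genes at 321 to 331 against 168 to 208, of which 2 fell. Neuronal genes were at 2354 to 2416 against 2318 to 2383. The part of these lists in the members' values was not tested.

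The change of the replication genes differed between the sets. The interaction of set and treatment was fitted by limma to the 8 libraries as the change in the first set minus the change in the neuron set. It was positive in all 45 members tested, as in 6258 of 11705 genes. It passed in 23 members, while 0 passed in the negative direction. Of 11705 genes 6.19% passed as positive and 5.48% as negative, and the median was 0.69 for the members and 0.04 for all genes. These values share their libraries with both preceding comparisons and are no independent support for them. Orc1, Pole, Pole2, Exo1 and E2f1 averaged under 1 RPKM in the neuron set and entered this fit through their first-set level. Of these, Orc1 and Exo1 are counted among the 23 that passed. Cdc6 had the largest difference, 1.60 (SE 0.20, adjusted p = 0.00128), from 1.02 in the first set and -0.58 in the neuron set. Uhrf1 followed with 1.46 (SE 0.23, adjusted p = 0.00377), from 0.86 and -0.60. Both genes were higher in each PLA1 library and lower in each Neuron-PLA library than in any control of their set.

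Orc1 differed by 1.30, and Mcm3 by 1.26 (SE 0.18, adjusted p = 0.0027). Exo1 differed by 1.09 (SE 0.25, adjusted p = 0.0202), Tk1 by 1.05 (SE 0.20, adjusted p = 0.00991) and Ccne1 by 1.00 (SE 0.20, adjusted p = 0.0118). For Orc1 and Exo1 the neuron-set libraries read no more than 1.16 and 0.771 RPKM, near the floor of the log2(RPKM + 1) scale. In the helicase activation group only Mcm10 passed (0.76, SE 0.20, adjusted p = 0.0399), and among the clamp and loader genes Rfc1 (0.78, SE 0.19, adjusted p = 0.0241) and Rfc4 (0.72). Mcm10 lost its call in most alternatives, and Rfc1 and Exo1 lost theirs when each of the 4 first-set libraries was left out in turn, with values of 0.74 to 0.83 and 1.05 to 1.14. Rfc1 also lost it without Neuron-ctrl library 1 (0.75), Neuron-ctrl library 2 (0.82) or Neuron-PLA library 1 (0.61), and Exo1 without Neuron-ctrl library 2 (1.01). Tk1 no longer passed without Ctrl1 library 1 (0.999), nor Ccne1 without Ctrl1 library 2 (0.95). Pold1 had a difference of 0.97 but a wide error (SE 0.28, adjusted p = 0.0547), which passed without Neuron-PLA library 2 (1.33), and Gins4 had the smallest, 0.09 (SE 0.11, adjusted p = 0.654). Fen1 was not tested. The number of members that passed fell to 14 with no filter on low values, to 12 without Ctrl1 library 1, to 11 without Ctrl1 library 2 and to 14 without PLA1 library 1. Of the 38 members with little opposite-strand overlap 21 passed, with a median of 0.73. Of 53 other replication genes 14 passed as positive, Mcm8 (1.51), a helicase of recombination repair, and E2f2 (1.42) leading, and of the mitosis genes 14 of 20.

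**Figure D4:**
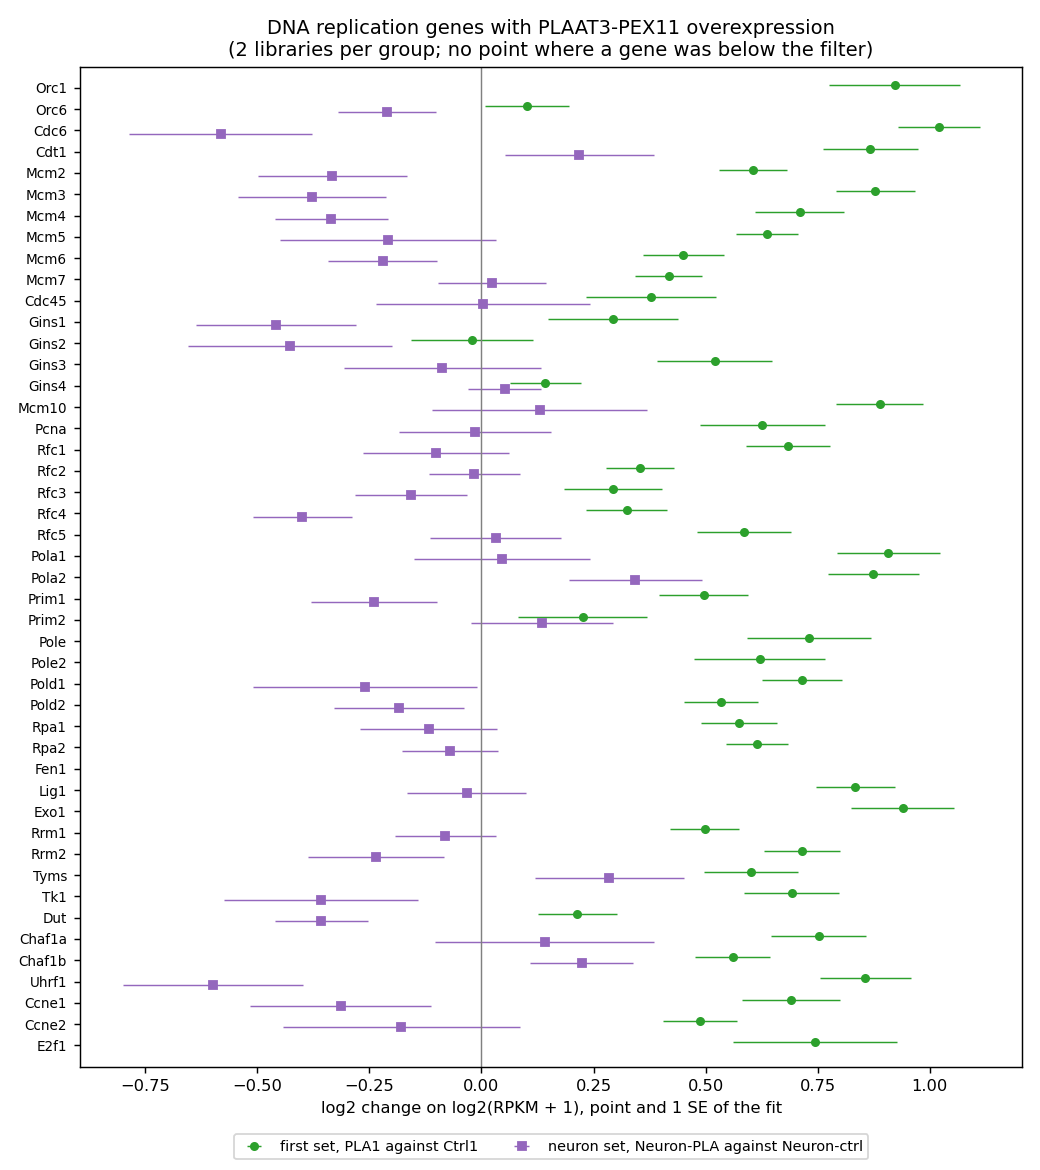
Change in log2(RPKM + 1) with PLAAT3-PEX11 overexpression for each member, with bars of 1 SE, in the first set (circles) and the neuron set (squares), 2 libraries per group. Circles lie around 0.61 and nearly all above 0, squares around -0.14, and members under the filter in a set have no symbol there.

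Members that fell more steeply over the stages were also those that differed more between the scramble libraries. Across the 46 members the slope and the scramble difference had Pearson's r = -0.75 and Spearman's rho = -0.80, against r = -0.56 across all genes measured in both. The slope and the change in the first set gave r = -0.41 and rho = -0.37 over 45 members, against r = -0.48 across all genes. The scramble difference and the first set gave r = 0.44 and rho = 0.35, against r = 0.37 across all genes. The slope and the neuron set gave r = 0.32 and rho = 0.34 over 40, against r = 0.11 across all genes. Genes of 1 library are not independent of each other, and low levels shrink every value on the log2(RPKM + 1) scale in the same genes, so these are descriptions across genes. The 14 members with an E2F match had a median slope of -0.35 and a median first-set change of 0.77, 13 of the 14 rising in that set. The 23 with a window and no match had medians of -0.32 and 0.60, with 19 rising. The 9 with no window had medians of -0.25 and 0.35, with 5 rising.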

How the data were processed

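RNA sequencing of 18 mouse libraries was used. Per the submitters' processing notes, the aligner was STAR 2.7.9a, the counter HTSeq 0.6.0 and the genome build mm10. The deposited values were taken as RPKM, since no header names the unit and each value multiplied by merged exon length (GENCODE M21) and a read total gave whole reads, within 0.01, for 97.5% to 97.8% of values, with a length for 32009 of 32941 genes. The 4 tables were normalised separately, and tests were run within a table, the interaction being a difference of such differences. A trended limma model (3.58.1, R 4.3.3) was fitted to log2(RPKM + 1) of genes averaging 1 RPKM or more, with Benjamini-Hochberg adjusted p under 0.05 over all genes tested. Fold changes on this scale understate those of low genes. The stages were fitted with a slope on embryonic day. Each of the other comparisons set 2 libraries against 2, so precision rests on few libraries. All sample columns were used.

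Members, role groups and lists were chosen with earlier results of these data known. In each comparison the text names the member of each role group with the largest change, the smallest change of all, members of opposite sign to the median and members under the filter, and among other replication genes that passed up to 2 rises and 2 falls. Further members are named where a count singles them out. Marker lists covered mitosis, radial glia, intermediate progenitors, neurons, hindbrain and spinal identity, astrocytes, oligodendrocyte lineage, microglia, endothelium, pericytes and meninges, and erythroid cells. A further marker list is not reported here. Promoter windows came from RefSeq (GRCm38.p6), and shares have exact intervals that cover counting error only.

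The fits were tested on simulated reads with known changes. Calls there held more unchanged genes than the nominal share in several settings, most when all genes were given the same dispersion, and a version with gene-wise dispersion was added after that was seen. Counts of passing genes may therefore hold more false calls than the threshold states. Alternatives were another pseudocount, no filter or a stricter filter, median-ratio and upper-quartile scaling, limma-voom on recovered reads, leaving out each library, the replicate number as a block, and, chosen after seeing the data, only members with under 10% opposite-strand overlap.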

Additional observations from a re-analysis of the deposited data

Results flagged for a closer look

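For 23 members the response to PLAAT3-PEX11 overexpression differed between the first set and the neuron set by a test of the difference itself, the interaction of set and treatment in limma with Benjamini-Hochberg adjusted p under 0.05. All values are the log2 change in the first set minus that in the neuron set, and all 23 were positive. Of all genes tested 6.19% passed as positive and 5.48% as negative. In the licensing group they were 1.30 for Orc1, 1.60 for Cdc6 and 0.65 for Cdt1. In the MCM ring they were 0.94 for Mcm2, 1.26 for Mcm3, 1.04 for Mcm4 and 0.67 for Mcm6. Helicase activation and the clamp loader gave 0.76 for Mcm10, 0.78 for Rfc1 and 0.72 for Rfc4. The polymerase and primase genes gave 0.86 for Pola1, 0.74 for Prim1 and 0.72 for Pold2. Single-strand binding and flap processing gave 0.69 for Rpa1, 0.68 for Rpa2, 0.87 for Lig1 and 1.09 for Exo1. Nucleotide supply gave 0.58 for Rrm1, 0.95 for Rrm2, 1.05 for Tk1 and 0.57 for Dut. Uhrf1 of chromatin assembly had 1.46 and the cyclin gene Ccne1 had 1.00. Dut passed here without passing in either set alone, its changes being 0.21 and -0.36. Orc1 and Exo1 averaged under 1 RPKM in the neuron set and were tested here only through their first-set level. Mitosis genes differed in the same direction (14 of 20 passed, median 0.99) and neuronal genes in the other (7 of 10 passed), and the sets differ in their label and in the neuronal content given above. Their part in the difference was not tested.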

How the results depend on the processing

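Of 1075 values recomputed under an alternative, 965 kept their direction and their side of the threshold or moved by less than the replicate spread. The count of genes with a slope was 5828, 3840 with the stricter filter (fewer genes tested) and 2537 to 5485 without 1 stage, lowest without E18. Rfc5 then spanned -0.056 to 0.049. The members' knockdown median spanned -0.24 to 0.34 without 1 library, as described, and single members crossed 0 in the same way, over ranges of -0.33 to 0.064 (E2f1), -0.20 to 0.091 (Orc1), -0.15 to 0.027 (Orc6), -0.30 to 0.22 (Mcm7), -0.24 to 0.19 (Rfc1), -0.22 to 0.11 (Rfc2), -0.12 to 0.048 (Rfc3), -0.16 to 0.11 (Rfc5), -0.30 to 0.18 (Pola1), -0.24 to 0.13 (Pold2), -0.39 to 0.24 (Exo1), -0.30 to 0.21 (Ccne1), -0.30 to 0.46 (Cdt1), -0.23 to 0.41 (Mcm5), -0.13 to 0.54 (Gins1), -0.17 to 0.44 (Rfc4), -0.19 to 0.43 (Pole2), -0.12 to 0.61 (Rrm2), -0.43 to 0.56 (Uhrf1) and -0.015 to 0.015 (Gins4). In the first set 3438 genes passed, 1177 with no filter and 1575 to 3294 without 1 library, and the members' median was 0.64 with a pseudocount of 0.1, 0.56 with median-ratio and 0.51 with upper-quartile scaling, 0.64 with limma-voom, and 0.58 to 0.64 without 1 library. Gins2 spanned -0.12 to 0.079. In the neuron set 98 genes passed, 0 with no filter, 216 with the stricter filter, 353 with limma-voom and 7 to 163 without 1 library. Cdc45 was -0.0076 with upper-quartile scaling and -0.087 to 0.095 without 1 library, over which Mcm7 spanned -0.095 to 0.14, Gins4 -0.00050 to 0.10, Chaf1a -0.033 to 0.32, Mcm10 -0.0081 to 0.27 and Rfc5 -0.023 to 0.086. For the interaction 1367 genes and 23 members passed, 761 and 14 with no filter, 636 to 1218 and 11 to 22 without 1 library, and the members' median was 0.62 with upper-quartile scaling. Mcm10 lost its call in most alternatives. Where a group was left with 1 library, that library was assumed to vary like the others. The background of E2F matches was 0.813% with 2 forms and 4.04% over tested genes. Other causes of these shifts were not tested.

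Whether the replicate numbers of the labels pair libraries is not known. Over all genes tested, deviations of equal numbers correlated at 0.01 (knockdown), 0.10 (first set) and 0.05 (neuron set). Among the members, library 1 lay above library 2 in 46 of 46 for scramble and 42 of 46 for Pex7sh. The shares of all genes were 49.4% and 51.6%. A correlation over all genes cannot exclude pairing. With the replicate number as a block 1 gene passed for the knockdown, 4297 genes and 38 members in the first set, 54 genes in the neuron set and 23 members in the interaction.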
